A study of Mus musculus with 30 samples.

Results

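Microglia of male mice in which Bin1 was deleted under Cx3Cr1-Cre were compared with microglia of male control mice, as 5 libraries labelled Homo against 5 labelled WT out of the 30 libraries listed for the series. The libraries were taken by the start of their column names, Bin1-Homo-M and Bin1-WT-M. Of 47643 genes in the table, the 16897 with a mean of at least 0.1 FPKM (fragments per gene, scaled by transcript length and library size) over the 30 libraries were tested. The study asked what the loss of Bin1 does to the transcriptome of microglia, by bulk RNA-seq in both sexes. Homo mice were Bin1 flox/flox::Cx3Cr1-Cre+, and WT mice were, by the study's own description, Bin1 wt/flox without Cre. All mice were 3 months old, and each library carries a mouse number of its own. By the study's methods the cells were CD11b+ CD45med cells sorted from brain without cerebellum and olfactory bulbs, whereas the samples' growth protocol describes cultured microglia. Because Cre is knocked into the Cx3cr1 locus and was carried by every Homo mouse and by no WT mouse, the effects of the Cre allele and of Bin1 loss cannot be told apart. Cx3cr1 is also active in other myeloid cells, so deletion is not restricted to microglia.

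Of the Homo libraries, 3 (Homo-M-0093, Homo-M-0097 and Homo-M-0109) have early mouse numbers and the other 2 (Homo-M-0189 and Homo-M-0190) have late ones. All 5 WT libraries (WT-M-0176, WT-M-0177, WT-M-0178, WT-M-0202 and WT-M-0258) have late numbers. What the number records is not given in the sources used here, so values for the early and late Homo libraries are given apart below. Per gene, values run through the Homo libraries in the order Homo-M-0093, Homo-M-0097, Homo-M-0109, Homo-M-0189, Homo-M-0190 and through the WT libraries in the order WT-M-0176, WT-M-0177, WT-M-0178, WT-M-0202, WT-M-0258.

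Microglia are the resident macrophages of the brain. They survey the tissue through receptors such as P2ry12, take up debris into lysosomes, and on stimulation release cytokines such as Tnf and Il1a, while glucocorticoids restrain that response by inducing genes such as Tsc22d3. Bin1 is an adaptor protein of the BAR domain family, which bind and bend membranes in endocytosis and trafficking, and variants near it are associated with Alzheimer's disease.

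Bin1, which lies on chromosome 18 of mm10 from 32377230 to 32435737, stood at 55.5, 54.4, 53.3, 45.2 and 39.9 FPKM in the Homo libraries. In the WT libraries it stood at 263, 256, 252, 230 and 290 FPKM. The groups did not overlap, and the difference was -2.47 on the log2 scale (SE 0.26, adjusted p = 1.67e-06 by limma). Cx3cr1, the fractalkine receptor whose locus carries Cre, had 928 ± 157 FPKM in Homo and 2043 ± 247 in WT (SD, n = 5), again without overlap, although its test did not pass (adjusted p = 0.29). Its difference was -1.23 on the log2 scale with an SE of 0.69, from a spread fitted over all 6 groups of sex and genotype. The 8 microglia markers summed to between 17510 and 23570 FPKM in Homo and between 19420 and 22800 in WT, and none of them was a DEG. P2ry12, the purinergic receptor of homeostatic microglia, stood at 4580 ± 696 FPKM in Homo and 4301 ± 474 in WT. Of the 8 markers, 6 had a negative difference, with a median of -0.14 over all mice and 0.07 in late mice. Tmem119 was lower in Homo without overlap, at 1850 ± 254 FPKM against 2259 ± 112 (-0.38, adjusted p = 0.17 by limma). Depth relative to the other libraries ranged from 0.669 to 1.41 in Homo and from 0.979 to 1.35 in WT. In bulk samples such as these, fewer cells of a type and less RNA per cell cannot be told apart.

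A differentially expressed gene (DEG) was a gene with a Benjamini-Hochberg adjusted p under 0.05 and a change of more than 1.5-fold. Of the 16897 genes, 306 were DEGs (1.81%), and of all genes 1.17% rose in Homo and 0.645% fell. All 5 Homo libraries lay outside the range of the 5 WT libraries for 125 of the raised and 60 of the repressed DEGs, against a background of 2.56% of all genes above and 1.37% below. The DEGs were chosen on the same values, so these counts are a description. The number of DEGs differed between fits. With the number range as a covariate 35 genes were DEGs (0.207%), with late-numbered mice alone 10 were (0.0592%), and with only the 10 libraries compared in the fit 42 were. Leaving out single libraries gave between 76 DEGs (without Homo-M-0093) and 820 (without Homo-M-0189), and leaving out WT-M-0202 gave 595. With FPKM left unscaled, 217 rose and 65 fell, and the median over all tested genes moved from 0.03 to 0.11 on the log2 scale. The chaperones and the 9 genes raised in both sexes are left aside here, which leaves 187 raised and 99 repressed DEGs with Bin1 put aside too.

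The size of the change was smaller in the late mice, but its sign held. For the raised DEGs the median log2 fold change was 1.04 over all mice and 0.74 with the 2 late Homo libraries alone, and for the repressed DEGs it was -0.85 and -0.64. Over all tested genes these medians were 0.03 and 0.00. Both late Homo libraries lay beyond all 5 WT libraries in the direction of the call for 130 raised and 67 repressed DEGs, where the background was 5.9% of all genes above and 5.28% below. The late Homo libraries helped to choose the DEGs, so these counts are a description. Het males (Bin1 wt/flox::Cx3Cr1-Cre+), compared with the same 5 WT libraries, showed the raised DEGs higher by a median of 1.12 in their 2 early-numbered libraries and 0.53 in their 4 late-numbered ones, and the repressed DEGs by medians of -0.795 and -0.48. These WT libraries also helped to choose the DEGs, so the Het values are a description and not an independent comparison.

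**Figure D1:**
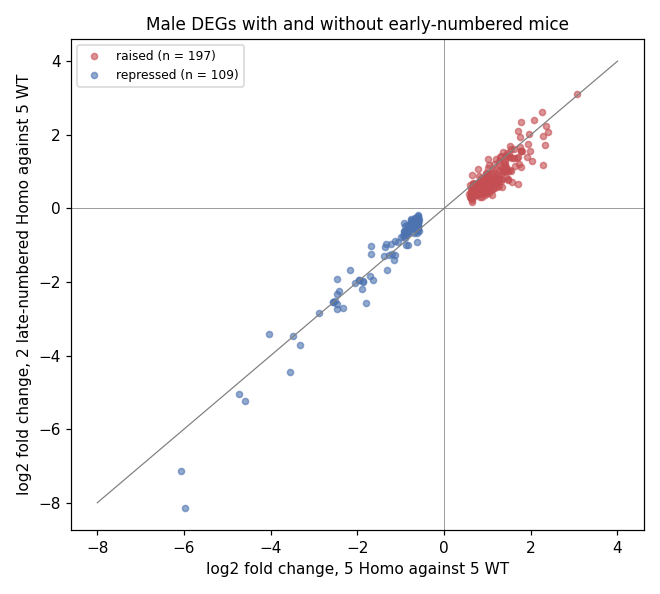
Log2 fold change of each of the 306 male DEGs with all 5 Homo libraries (x axis) and with the 2 late-numbered Homo libraries alone (y axis), each against the same 5 WT libraries. Raised genes are red, repressed genes blue, and the line marks equal values. Every DEG kept its sign, and the raised genes lie mostly under the line (medians 1.04 and 0.74).

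Among the 101 named DEGs, leaving aside Bin1, 4 genes passed in every alternative tried, including the fit to late-numbered mice alone. The 9 genes raised in both sexes were not among those named, and 3 of them were also DEGs in the late fit. Tmem154, a transmembrane protein, stood at 3.41, 4.61, 4.29, 3.97 and 4.79 FPKM in Homo and at 2.14, 1.87, 1.44, 1.86 and 1.21 in WT. It was 2.29-fold higher in Homo (adjusted p = 0.000133, 3.13e-05 to 0.0404 over the alternatives). The lowest Homo library lay above the highest WT library. Cacna1s, the pore-forming subunit of the L-type calcium channel of skeletal muscle, stood at 6.73, 4.12, 7.77, 6.11 and 7.33 FPKM in Homo and at 2.25, 1.51, 1.93, 3.16 and 2.81 in WT, a 2.55-fold difference without overlap (adjusted p = 0.00108, 0.000382 to 0.0411 over the alternatives). Gm4951 had 5.34 ± 0.79 FPKM in Homo and 1.85 ± 0.82 in WT (SD, n = 5; 2.77-fold, adjusted p = 0.000183, 9.42e-06 to 0.0385 over the alternatives). The fourth, Tmem176a, is described with its partner gene below. In females Gm4951 rose as well (1.17, adjusted p = 0.0192). Of the 10 DEGs of the late fit, 2 were not DEGs over all mice, Nptn, which encodes the cell adhesion molecule neuroplastin, at 301 and 264 FPKM in the late Homo libraries against 135 to 200 in WT, and the miRNA gene Mir181a-2, at 1.43 and 0.941 FPKM against 0 in every WT library. Both are named after their values were seen.

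Some genes of inflammatory signalling rose. Of 28 tested cytokines and TNF family ligands, 4 rose (Tnf, Tnfsf8, Il6 and Il1a), none fell and 24 did not pass, and the median over the list was 0.20 (0.24 in late mice), against 0.03 over all tested genes. Tnf, the founding member of the TNF family (chromosome 17, 35199381 to 35202007), stood at 5.51, 6.75, 3.48, 3.9 and 3.4 FPKM in Homo and at 0.691, 0.906, 0.681, 1.89 and 1.3 in WT. It was 3.85-fold higher (log2 difference 1.95, SE 0.37, adjusted p = 0.00654), and the late libraries alone gave 1.75. Every Homo library lay above every WT library. Il1a, an interleukin-1 that microglia make in quantity, stood between 104 and 128 FPKM in the 5 Homo libraries and at 67.2, 63.7, 63.2, 98.7 and 63.8 in WT (0.60, SE 0.15, adjusted p = 0.0264). The library WT-M-0202 lay closest to the Homo range. Tnfsf8, the ligand of CD30, had 2.08 ± 0.43 FPKM in Homo and 0.723 ± 0.356 in WT (adjusted p = 0.0231). Il6 overlapped between the groups, with 8.7 to 16.6 FPKM in Homo and 3.07 to 10.5 in WT (adjusted p = 0.0351). Il1b, the other interleukin-1, gave 0.81 (adjusted p = 0.0814) and was not a DEG.

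Of 21 chemokine ligands, 1 rose. Ccl9, a ligand of Ccr1, stood at 128, 119, 204, 131 and 136 FPKM in Homo and at 63.1, 51.6, 49.9 and 72.5 in WT other than WT-M-0202 (1.95-fold, adjusted p = 0.00916). The groups overlapped through WT-M-0202, which lay above the lowest Homo library. Its receptor Ccr1 rose too, with 13.8 to 20.4 FPKM in Homo and 4.95 to 13.1 in WT (2.11-fold, adjusted p = 0.0332). Of 45 chemokine and cytokine receptors, 2 rose, Ccr1 and Ackr3, an atypical receptor that scavenges Cxcl12, and 1 fell, the prolactin receptor gene Prlr. Ackr3 had 1.93 ± 0.43 FPKM in Homo and 0.718 ± 0.256 in WT (adjusted p = 0.0243). The Tnf receptors did not pass, with log2 differences of -0.32 for Tnfrsf1a and -0.38 for Tnfrsf1b.

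Genes of other signalling and inflammasome lists were raised singly. Nfkbiz, which encodes a nuclear regulator of NF-kB induced by interleukin-1 and Toll-like receptors, stood at 9.6, 7.03, 8.6, 4.79 and 4.51 FPKM in Homo and at 3.1, 2.12, 2.56, 3.47 and 2.97 in WT (2.18-fold, adjusted p = 0.0111). The late libraries were the lowest of the Homo group but still above every WT library. It was 1 of 25 members of the NF-kB feedback list, and the other 24 did not pass. Ier3, an immediate early gene that protects from Tnf-induced death, rose 2.39-fold (adjusted p = 0.036) and was the only DEG among 28 immediate early genes. Dusp5, a phosphatase that turns off ERK, rose 2.62-fold from 0.115 ± 0.120 FPKM (adjusted p = 0.0318), as the only DEG among 14 MAP kinase phosphatases and Ras feedback genes. Casp4, the sensor caspase for cytosolic lipopolysaccharide, rose 1.54-fold (adjusted p = 0.039), and the other 16 inflammasome genes did not pass. Cd40, the costimulatory receptor, stood at 1.15 ± 0.42 FPKM in Homo and 0.345 ± 0.216 in WT (adjusted p = 0.0318). None of the 27 tested genes of Toll-like receptor signalling was a DEG (median -0.11). Of the 82 tested genes of the type I interferon response none rose and 1 fell, Ifi207, an Ifi200 family gene (-1.16, adjusted p = 0.039).

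Of these calls, Tnf and Ccl9 held with each of the 10 libraries left out in turn. Nfkbiz lost its call only without Homo-M-0093 (adjusted p = 0.0501). Il1a, Il6, Tnfsf8, Ccr1, Ackr3, Ier3, Dusp5, Casp4 and Cd40 each lost theirs without any of at least 4 single libraries among Homo-M-0093, Homo-M-0097 and Homo-M-0109 and WT-M-0176, WT-M-0177, WT-M-0178 and WT-M-0258, at adjusted p values of up to 0.141. Ifi207 lost its call without any of 8, Homo-M-0189 and WT-M-0202 among them (adjusted p up to 0.0923).

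**Figure D2:**
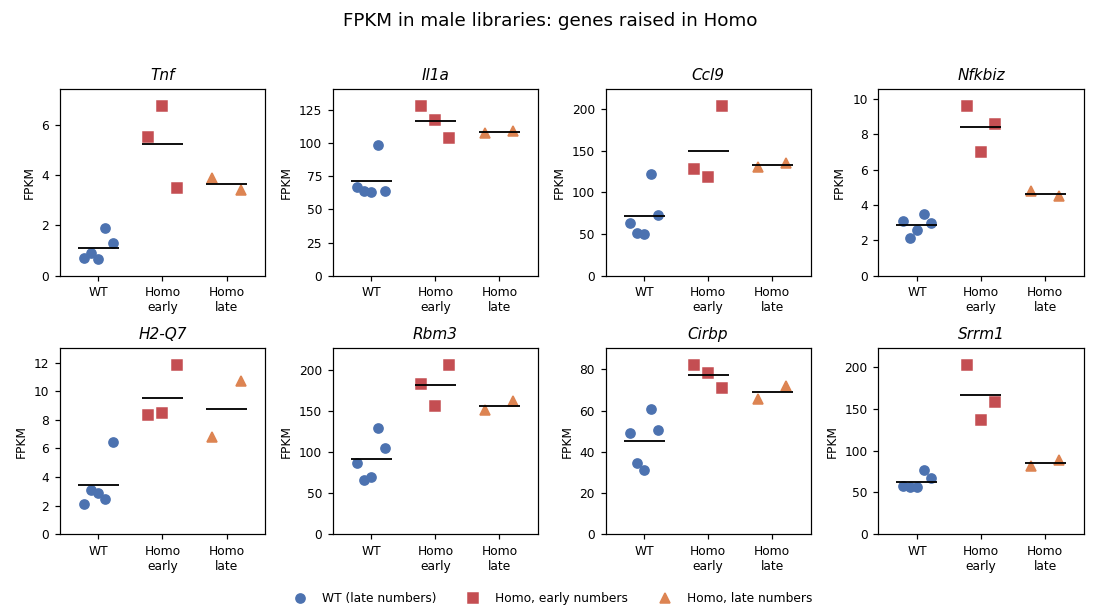
FPKM (y axis, linear from 0) of 8 raised genes in each male library, with WT in blue circles, early-numbered Homo in red squares and late-numbered Homo in orange triangles. Lines are means. For Tnf, Il1a, Nfkbiz, H2-Q7, Rbm3, Cirbp and Srrm1 all 5 Homo libraries lie above all 5 WT libraries, and for Ccl9 WT-M-0202 lies above the Homo library at 119.

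Of 24 tested genes of MHC class I presentation 2 rose, H2-Q7 and H2-Q5, and 22 did not pass. H2-Q7, a non-classical MHC class I gene of the Qa-2 family (chromosome 17, 35439155 to 35443773), stood at 8.31, 8.47, 11.8, 6.8 and 10.7 FPKM in Homo and at 2.14, 3.09, 2.87, 2.49 and 6.46 in WT. It was 2.67-fold higher without overlap (adjusted p = 0.00232), by 1.41 on the log2 scale in all mice and in late mice alike, and by 1.19 in females, where the test did not pass (adjusted p = 0.082). Its neighbour H2-Q5 had 5 ± 2.04 FPKM in Homo and 1.89 ± 0.47 in WT (adjusted p = 0.0332). These genes are close copies of each other, so reads may have been shared among them. The classical class I genes did not pass, with log2 differences of 0.19 for H2-K1, 0.02 for H2-D1 and -0.11 for their light chain B2m.

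Of 14 tested genes of class II presentation Cd74 fell, Cd40 (given above) rose, and 12 did not pass. Cd74, the invariant chain that escorts class II molecules, stood at 38, 78.3, 55.7, 44.5 and 53.7 FPKM in Homo and at 80.7, 154, 120, 102 and 130 in WT (2.31-fold lower, adjusted p = 0.0318). The highest Homo value lay just under the lowest WT value. The class II chains themselves were also lower without passing, -1.27 for H2-Aa (adjusted p = 0.0852), -0.91 for H2-Ab1 (adjusted p = 0.0611) and -1.24 for H2-Eb1 (adjusted p = 0.08). Border macrophages, which carry class II, had summed marker levels of 115 and 128 FPKM in the late Homo libraries, 158 to 251 in the early ones and 147 to 184 in WT. All 11 of these markers had a negative difference and none passed, with a median of -0.87 over all mice and -1.20 in late mice. Their part in these values was not tested. In females Cd74 differed by -0.08. H2-Q7 kept its call without any single library, whereas Cd74 lost it without Homo-M-0093 or Homo-M-0109 or without WT-M-0177, WT-M-0178 or WT-M-0258, and H2-Q5 without 6 of the 10, at adjusted p values of up to 0.112.

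Ly9 and Cd244a, receptors of the SLAM family, were the 2 DEGs among 30 immune checkpoint and costimulation genes. That list leaves out the inhibitory receptor gene Pdcd1, which is among the 9 genes raised in both sexes and rose 3.91-fold in males. Ly9 stood at 18.9, 22.2, 17.6, 26.8 and 23 FPKM in Homo and at 13.6, 10.8, 12, 10.7 and 12.1 in WT (1.71-fold, adjusted p = 0.0351). Here the late Homo libraries were the highest. Cd244a had 5.13 ± 2.47 FPKM in Homo and 1.89 ± 0.65 in WT (2.37-fold, adjusted p = 0.0235). The annotated spans of the genes overlap on chromosome 1, so their reads may not be independent. Their differences in females were 0.69 and 1.46 (adjusted p = 0.667 and 0.0718). F3, tissue factor, which starts coagulation, rose 1.96-fold in males without overlap (adjusted p = 0.0228) and differed by 0.94 in females. Il4i1, an amino acid oxidase that dampens T cells, rose 1.56-fold (adjusted p = 0.039), with its late libraries the higher ones (0.92 in late mice). Adora1 and Kcnj12, a receptor for adenosine and an inward rectifier potassium channel, were the 2 DEGs among 40 purinergic receptors and ion channels, at differences of 1.00 and 0.96. Lyz2, the lysozyme of macrophages, rose 1.78-fold, with 464 to 1053 FPKM in Homo and 259 to 525 in WT (adjusted p = 0.0181). None of these calls held in all 10 fits that left out a library. Kcnj12 lost its call without Homo-M-0093 or WT-M-0177, and the others lost theirs without any of 3 to 8 libraries among Homo-M-0093, Homo-M-0097, Homo-M-0109 and Homo-M-0190 and WT-M-0176, WT-M-0177, WT-M-0178 and WT-M-0258, at adjusted p values of up to 0.142.

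Some genes that glucocorticoids induce fell. Of 23 tested, none rose, 4 fell (Lcn2, Ddit4, Tsc22d3 and Glul) and 19 did not pass, and the median was -0.30 over all mice and -0.08 in late mice. Tsc22d3, also called GILZ, which carries much of the anti-inflammatory action of glucocorticoids (chromosome X, 140539528 to 140600659), stood at 26.8, 26.6, 34.1, 28.4 and 28.7 FPKM in Homo. In WT it stood at 69.4, 84.2, 77, 43 and 91.4 FPKM. It was 2.6-fold lower in Homo (log2 difference -1.38, SE 0.29, adjusted p = 0.0121; -1.30 in late mice), and WT-M-0202 was again the WT library nearest to Homo. Ddit4, an inhibitor of mTORC1 that stress and glucocorticoids switch on, stood at 0.894, 1.27, 0.845, 2.31 and 1.4 FPKM in Homo and at 5.19, 14.1, 11.9, 2.04 and 9.73 in WT (-2.48, adjusted p = 0.0105). The groups overlapped through WT-M-0202. Glul, glutamine synthetase, fell 1.63-fold from 175 ± 42.2 to 113 ± 18.1 FPKM (adjusted p = 0.039). Lcn2 is also a neutrophil gene and is given with those below.

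Other well-known members of the list did not pass. Fkbp5 differed by -0.16, Per1 by -0.42 and Sgk1 by 0.14, and Nr3c1, the receptor for glucocorticoids, by -0.19. Il1r2, also on the list, was higher in Homo by 1.49 without passing (adjusted p = 0.0695 by limma). Its difference was 1.745 in late mice and 1.81 in females. Of the 23 listed genes tested, 6 had a positive and 17 a negative difference. Single genes of other lists of transcription and mRNA decay were DEGs, and most of their members did not pass. Klf2, a quiescence factor of endothelial and myeloid cells, stood at 0.326, 1.77, 0.712, 1.58 and 0.968 FPKM in Homo and at 3.57, 2.54, 3.34, 2.69 and 3.34 in WT (3.23-fold lower, adjusted p = 0.00985). The groups did not overlap, and Klf2 was the only DEG among 13 KLF genes. Nfil3, a basic leucine zipper repressor, fell 1.99-fold (adjusted p = 0.0225) and Bhlhe41, a repressor in the circadian clock, rose 1.68-fold (adjusted p = 0.0255), among 19 clock genes. Cebpb, a driver of myeloid inflammatory genes, fell 1.51-fold (adjusted p = 0.0176), and of 41 myeloid lineage transcription factors Cebpb and Bhlhe41 were the only DEGs. Zfp36l1, which speeds the decay of AU-rich mRNAs, fell 1.72-fold (adjusted p = 0.0171) as 1 of 23 AU-rich decay genes. Arid5a, an RNA-binding protein that stabilizes Il6 mRNA, fell 1.51-fold (adjusted p = 0.00885) as 1 of 125 chromatin modifiers. In females the differences of Tsc22d3, Ddit4, Glul and Klf2 were -0.20, -0.14, 0.15 and -0.38, and none passed. Tsc22d3, Ddit4 and Klf2 kept their calls without any single library, whereas Glul, Nfil3, Cebpb, Zfp36l1 and Bhlhe41 lost theirs without any of at least 4 libraries among Homo-M-0093, Homo-M-0097, Homo-M-0109 and Homo-M-0190 and WT-M-0176, WT-M-0177, WT-M-0178 and WT-M-0258, at adjusted p values of up to 0.133. Arid5a kept an adjusted p of at most 0.0379 but fell under the 1.5-fold threshold without Homo-M-0109 or WT-M-0177.

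Some lipid-handling genes fell. Of 38 tested LXR targets and lipid genes, none rose and 3 fell, Apoe, Plin2 and Pltp (median of the list -0.20, late mice -0.10). Apoe, the apolipoprotein that microglia secrete (chromosome 7, 19696109 to 19699188), stood at 185, 298, 232, 295 and 260 FPKM in Homo and at 470, 556, 471, 518 and 572 in WT. It was 2.18-fold lower (log2 difference -1.13, SE 0.20, adjusted p = 0.00229; -0.90 in late mice), with a wide gap between the groups. Apoe was the only DEG among 35 tested genes of Alzheimer's disease risk loci other than Bin1. Plin2, the coat protein of lipid droplets, stood at 15.4, 17.3, 15, 13.9 and 13.8 FPKM in Homo and at 24.7, 20.9, 21.6, 21.8 and 21.1 in WT. It was 1.55-fold lower (adjusted p = 0.00151), and slightly more so in late mice (-0.66) than over all mice (-0.63). Pltp, the phospholipid transfer protein, fell 3.29-fold from 3.33 ± 1.65 FPKM (adjusted p = 0.017). Endothelial and choroid plexus cells also express Pltp, and its highest value, 5.96 FPKM, came from WT-M-0177, the library with the highest choroid plexus markers.

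Ch25h, cholesterol 25-hydroxylase, went the other way at 1.28 without passing (adjusted p = 0.0547). None of the 26 tested genes of sterol synthesis and uptake or of the 29 of fatty acid synthesis and oxidation was a DEG. In females Apoe differed by -0.10 and Plin2 by -0.25 (unadjusted p = 0.616 and 0.0288). The calls of Apoe and Plin2 held without any single library, and that of Pltp was lost without Homo-M-0093 or WT-M-0177 (adjusted p up to 0.0651).

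Tmem176a and Tmem176b, membrane proteins that keep dendritic cells immature, fell together. Tmem176a stood at 63, 96.2, 81, 101 and 83 FPKM in Homo and at 158, 131, 134, 156 and 161 in WT (-0.90, SE 0.12, adjusted p = 0.000133, 3.56e-05 to 0.0387 over the alternatives). Tmem176b stood at 184, 250, 207.5, 301 and 233 FPKM in Homo and at 416, 345, 353, 338 and 445 in WT (-0.79, SE 0.16, adjusted p = 0.00847). Neither gene overlapped between the groups. The gene models overlap at their ends on chromosome 6, so some reads may count for both. The other 6 tested members of the Ms4a and Tmem176 list did not pass.

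Single complement and uptake genes also fell. C4b and Cfp, a component of the classical pathway and properdin of the alternative pathway, were the 2 DEGs among 24 complement genes, at -1.13 and -1.65 (adjusted p = 0.0309 and 0.0441). Mfge8, which bridges phosphatidylserine on dying cells to integrins, fell 1.85-fold with no overlap (15.8 ± 0.5 FPKM in WT, adjusted p = 0.0171). Fcgrt, the neonatal Fc receptor that recycles IgG, fell 1.69-fold from 78.3 ± 4.36 FPKM (adjusted p = 0.0175). Clec4n, which encodes dectin-2, was the only DEG among 54 Fc, lectin and scavenger receptors, at -1.80. Of 39 disease-associated microglia genes none rose and 2 fell, Apoe and the lectin gene Lgals3. That list leaves out Cst7, a cystatin gene among the 9 raised in both sexes, which rose 4.24-fold in males. Cd9, a tetraspanin of that list and of extracellular vesicles, differed by 0.35 without passing (adjusted p = 0.15). Each of C4b, Cfp, Mfge8, Fcgrt, Clec4n and Lgals3 lost its call without any of at least 3 single libraries, which for each included Homo-M-0109, at adjusted p values of up to 0.16.

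**Figure D3:**
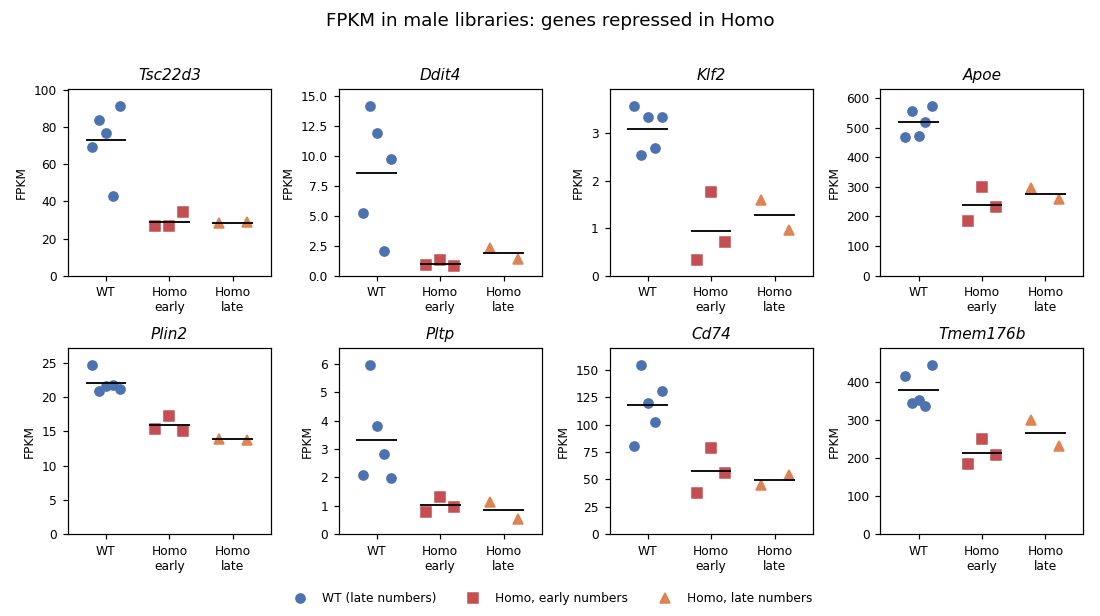
FPKM (y axis, linear from 0) of 8 repressed genes in each male library, with WT in blue circles, early-numbered Homo in red squares and late-numbered Homo in orange triangles. Lines are means. Apart from Ddit4, whose WT library at 2.04 lies under the highest Homo library at 2.31, all 5 Homo libraries lie below all 5 WT libraries.

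A pair of RNA-binding proteins that respond to temperature rose. Rbm3 and Cirbp are glycine-rich RNA-binding proteins induced by mild cold. Rbm3 (chromosome X, 8138975 to 8145880) stood at 183, 156, 206.3, 151 and 162 FPKM in Homo and at 87.3, 65.7, 69.7, 130 and 105 in WT (1.82-fold, SE 0.18 on the log2 scale, adjusted p = 0.00985). Cirbp stood at 82.2, 78, 71.1, 65.5 and 72.1 FPKM in Homo and at 49, 34.5, 31.2, 60.6 and 50.4 in WT (1.58-fold, adjusted p = 0.0439). In both genes the groups did not overlap, the late difference (0.82 and 0.65) was close to that over all mice (0.86 and 0.67), and WT-M-0202 was the highest WT library. Cirbp was singled out after its values were seen. Rbm3 kept its call without any single library, and Cirbp lost it without 8 of the 10 (adjusted p up to 0.115).

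Of the tested SR, hnRNP and other splicing factors, 4 rose, Rbm3, Srrm1, Hnrnpu and Sf3b1, 1 fell, Rbm42, and 104 did not pass. Srrm1, a matrix protein of the splicing apparatus, stood at 202.5, 137, 158, 81.4 and 88.8 FPKM in Homo and at 57.8, 57, 56.3, 76.9 and 67 in WT (1.90-fold, adjusted p = 0.018). The early Homo libraries were well above the late ones, which were just above WT. Sf3b1, the branch point factor of the U2 particle, stood at 359, 244, 272, 159 and 183 FPKM in Homo and at 127, 134, 145, 164 and 124 in WT (adjusted p = 0.0324). Here a late Homo library fell inside the WT range. Hnrnpu, a nuclear scaffold protein that binds RNA, rose 1.65-fold (adjusted p = 0.0218), with both late Homo libraries at 51.5 FPKM and the highest WT library at 44.7. Wsb1, a ubiquitin ligase adaptor, had 551, 424, 430, 272 and 299 FPKM in Homo and 164 to 282 in WT (1.78-fold, adjusted p = 0.0184). The median of the whole splicing list was 0.01 over all mice and -0.01 in late mice. Each of Srrm1, Sf3b1, Hnrnpu, Wsb1 and Rbm42 lost its call without Homo-M-0093 and also without Homo-M-0109, at adjusted p values of up to 0.134.

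Non-coding genes made up much of the raised set. Of 1754 tested long non-coding genes, 62 rose (3.54%) and 2 fell, whereas of 12592 protein-coding genes 118 rose (0.937%) and 106 fell. Genes known only by clone names, of any class, counted 85 raised and 2 repressed of 4255. Their shift followed the mouse numbers. The median difference of the long non-coding genes from the WT mean was 0.85, 0.44 and 0.74 in the early Homo libraries and 0.05 and 0.16 in the late ones, against -0.18 to 0.22 in the WT libraries. In Het males it was 0.73 in early-numbered and 0.06 in late-numbered libraries.

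Among single non-coding genes, Gm19708 stood at 7.49, 3.12, 7.66, 3.39 and 4.74 FPKM in Homo and at 0.758, 1.44, 0.822, 2.05 and 1.86 in WT (3.42-fold, adjusted p = 0.00106; 1.57 in late mice). H3f3aos, a transcript opposite to the histone gene H3f3a, stood at 6.17, 2.68, 3.11, 1.56 and 1.74 FPKM in Homo and at 0.206 to 1.01 in WT (5-fold, adjusted p = 0.00311). Strand was not stated to be used in counting, so reads of H3f3aos and of its sense partner cannot be told apart. Malat1 and Neat1, which stay in the nucleus, did not pass, but Neat1 read 50.7, 33.4 and 38.8 FPKM in the early Homo libraries and 17.1 and 17.7 in the late ones, against 12.3 to 21.3 in WT. Of 16 snoRNA host genes 14 were positive (median 0.57, against 0.03 over all tested genes), and 1 was a DEG, Snhg17 (0.72, adjusted p = 0.0439). The per-library medians of this list overlapped between the groups, at 0.25 to 0.89 in Homo and at 0.48 in WT-M-0258. Of 355 Zfp zinc finger genes 7 rose and 3 fell. The leading ones were Zfp943 (33.5, 31.5, 42.2, 28.4 and 31.5 FPKM in Homo, 18.1 to 24.4 in WT, adjusted p = 0.0126), Zfp935 (0.77, adjusted p = 0.0148) and Zfp719 (0.74, adjusted p = 0.0193). Gm19708 and H3f3aos kept their calls without any single library. Zfp943 lost its call without Homo-M-0109 or WT-M-0177, Zfp935 without Homo-M-0109, Zfp719 without Homo-M-0093 or Homo-M-0097 or WT-M-0176, and Snhg17 without any of 7 libraries, at adjusted p values of up to 0.158.

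All 13 mRNAs of the mitochondrial genome were on the positive side, with a median of 0.40 (0.44 in late mice and 0.30 in females), but 1 of them passed. That was mt-Atp8, an ATP synthase subunit, at 521, 368, 431, 433 and 394 FPKM in Homo and 256, 242, 243, 306 and 227 in WT (1.59-fold, adjusted p = 0.0381), a call lost without any of 7 libraries, Homo-M-0093, Homo-M-0097 and Homo-M-0109 and WT-M-0176, WT-M-0177, WT-M-0178 and WT-M-0258 (adjusted p up to 0.114). Its reading frame overlaps that of mt-Atp6. The list's per-library medians did not separate the groups, since WT-M-0258 (0.73) lay above all but 1 of the Homo libraries (0.03 to 0.78). Of 80 nuclear-encoded respiratory chain genes none rose and 1 fell, Cox8b, which was listed at 0 in every Homo library and at 0 to 1.94 FPKM in WT.

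The lists of membrane trafficking, in which Bin1 acts, held no DEG, which does not cover trafficking genes outside them. By its own test with DESeq2, the study reports the ESCRT-III gene Chmp4b as lower in male microglia without Bin1. None of the 73 tested genes of clathrin endocytosis and membrane curvature (median -0.15), the 45 of ESCRT and extracellular vesicles (-0.15), the 39 of autophagy (-0.06) or the 63 lysosomal genes (-0.26) passed, where 1.81% of all genes did. In late mice these medians were -0.07, -0.02, -0.03 and 0.01. Lysosomal genes read -0.54, -0.21 and -0.47 in the early Homo libraries and 0.05 and -0.03 in the late ones. The 37 homeostatic microglia genes held no DEG and went the same way, at -0.43, -0.10 and -0.40 in early and 0.05 and 0.01 in late Homo libraries. Complement genes did so as well, at -0.52, -0.27 and -0.53 in early and 0.08 and -0.03 in late libraries. Of the 60 function lists 21 held no DEG, among them cytosolic ribosomal proteins (85 genes, median 0.15), the unfolded protein response (27, -0.10), NRF2 targets (42, -0.16), cell cycle (50, -0.05), proteasome (48, -0.07), integrins (17, -0.17) and histones (46, -0.03).

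**Figure D4:**
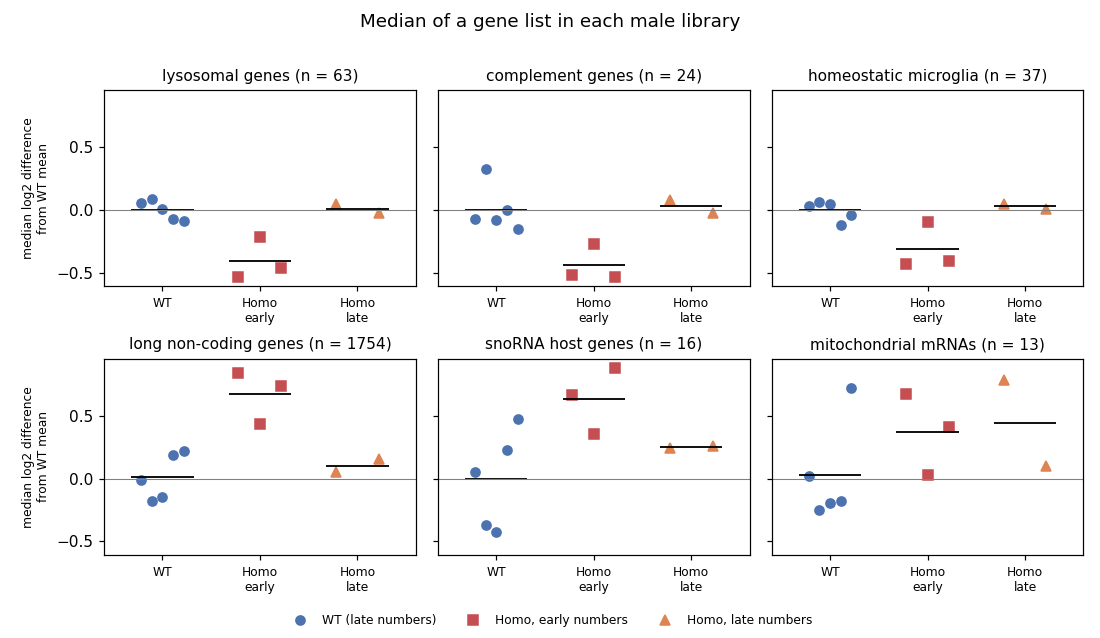
Median log2 difference from the WT mean over the tested genes of 6 gene groups (y axis) in each male library, with WT in blue circles, early-numbered Homo in red squares and late-numbered Homo in orange triangles. Lines are means of the libraries. In the lysosomal, complement and long non-coding panels the 3 early Homo libraries lie outside the WT range and the 2 late ones inside it.

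Cytoskeletal and metabolic genes changed singly. Cnn2, a calponin that binds actin, fell (-0.82, adjusted p = 0.00756), as did Lsp1, an actin-binding protein of leukocytes (-0.60, adjusted p = 0.0345), while Xirp1, which binds actin in striated muscle, rose, among 69 actin genes. Tubb2a, a beta-tubulin, stood at 55.3, 67.8, 56.6, 73 and 67.2 FPKM in Homo and at 94.1, 94.5, 99, 87 and 103 in WT (-0.67, adjusted p = 0.00985). Slc9a3r2 and Slc9a3r1, scaffolds that anchor membrane transporters, fell by 1.27 and 0.74 on the log2 scale (adjusted p = 0.00153 and 0.0462). Gpi1, the glycolytic isomerase, fell by 0.59 (adjusted p = 0.0171), and with Ddit4 it was 1 of the 2 DEGs among 43 genes of glycolysis and hypoxia. Adamts16, a secreted metalloprotease, rose at 22.8, 14.3, 16, 10.7 and 11.1 FPKM in Homo against 5.77 to 9.31 in WT (adjusted p = 0.00316). Cnn2, Xirp1, Tubb2a, Slc9a3r2 and Adamts16 kept their calls without any single library, and Lsp1, Slc9a3r1 and Gpi1 lost theirs without any of at least 4 libraries, Homo-M-0093 and WT-M-0176 and WT-M-0258 among them (adjusted p up to 0.158).

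Xirp1 is a close neighbour of the Cre allele. Its start lies 46 kb from that of Cx3cr1 on chromosome 9 (120013755 to 120023598), and it stood at 1.24, 1.14, 1.2, 0.834 and 1.16 FPKM in Homo and at 0.141, 0.348, 0.37, 0.265 and 0.156 in WT (3.34-fold, adjusted p = 0.00775). The groups were far apart. The annotated span of Cx3cr1 includes Xirp1, so reads of the 2 may not be independent. In late mice the difference was 1.66 and in females 1.41 (adjusted p = 0.247). Within 1 Mb of Cx3cr1, 2 of 22 tested genes rose, Xirp1 and, at 976 kb, the phospholipase gene Plcd1 (0.59, adjusted p = 0.0148, lost without Homo-M-0093 or Homo-M-0109 or WT-M-0178 at up to 0.0616), where 1.17% of all genes did. Within 10 Mb 4 of 128 rose, Xirp1, Plcd1, Ccr1 and 2010315B03Rik, and 2 fell, Ngp and Ltf. Within 10 Mb of Bin1 none of 144 tested genes was a DEG. Whether the change of Xirp1 comes with the Cre insertion or with Bin1 loss cannot be told apart.

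Some genes of cells other than microglia fell in Homo. Of 12 tested neutrophil markers 5 fell (Lcn2, Ngp, Chil3, Ltf and S100a9), and so did Cd177, listed at 0 in every Homo library and at 0.259 to 0.697 FPKM in WT, and Anxa1, which neutrophils express as well. Ngp, a neutrophil granule protein, read 0, 0.0923, 2.42, 0 and 0 FPKM in Homo and 26.1, 11, 8.1, 24.6 and 9.2 in WT (adjusted p = 0.00985). Of 17 listed neutrophil genes 12 were at 0 in both late Homo libraries. Csf3r, which microglia express, makes up most of that list's sum in most libraries, and without it, a choice made after the values were seen, the other 16 genes summed to 5.91, 0.232, 83.8, 0.192 and 0.756 FPKM in Homo and to 117, 47.7, 50.6, 364 and 75.5 in WT. Homo-M-0109 was thus the only Homo library in the range of WT. Lcn2, Ngp and Cd177 kept their calls with each library left out in turn, Chil3 and Anxa1 lost theirs without Homo-M-0093, and Ltf and S100a9 lost theirs without any of 6 and 8 of the 10, at adjusted p values of up to 0.09997.

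Of 9 tested choroid plexus and ependyma markers 3 fell, Cox8b, Fxyd1 and Prlr, and Calml4, Spint2, Slco1c1, Krt18, Msx1, Trpm3 and Sulf1, singled out after their values were seen, fell too. Of these, Cox8b, Prlr, Slco1c1, Krt18, Msx1, Trpm3 and Sulf1 overlapped between groups through WT-M-0258, where they were at 0. None of the 10 calls held with each library left out in turn. Cox8b lost its call without WT-M-0177 (adjusted p = 0.0501), Spint2 without Homo-M-0097 or WT-M-0177 (at up to 0.0721), and the others without any of 4 to 8 libraries, at adjusted p values of up to 0.141. The 13 listed markers summed to 21.1, 17.9, 31.6, 0.646 and 8.85 FPKM in Homo and to 101, 452.5, 121.7, 179 and 1.42 in WT, with Ttr, the transthyretin of choroid plexus, as the most abundant (0.0888 to 21.6 FPKM in Homo, 0.166 to 253 in WT). Erythroid markers held no DEG among 5 tested and summed to 61.7, 54, 112, 15.8 and 23.9 FPKM in Homo and to 0.253, 0, 0, 61.9 and 36.8 in WT. Summed astrocyte markers were higher in every Homo library than in any WT library, at 84.9 to 131.9 against 69.1 to 80.5 FPKM. All 8 tested had a positive difference and none passed, with medians of 0.53 over all mice and -0.01 in late mice. Border macrophage markers had negative differences without passing, as given with class II above. The part of such cells in the other results was not tested.

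**Figure D5:**
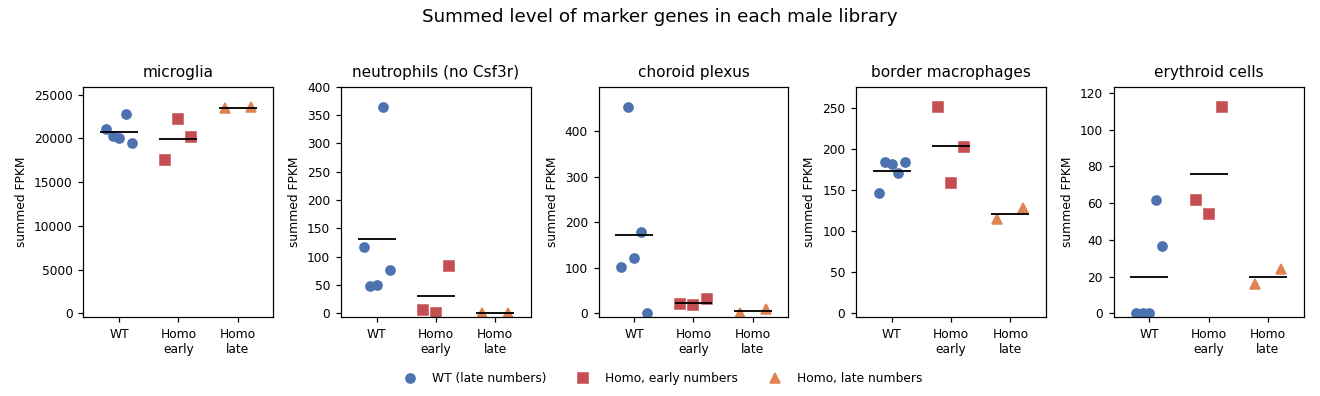
Summed FPKM of 5 marker lists (y axis, linear) in each male library, with WT in blue circles, early-numbered Homo in red squares and late-numbered Homo in orange triangles. Lines are means. Microglia markers overlap between the groups, whereas neutrophil markers without Csf3r lie under 1 FPKM in the late Homo libraries and at 47.7 or more in every WT library.

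Females offered a second comparison of the same genotypes, with 5 Homo and 4 WT libraries. Of these, WT-F-0122 has an early mouse number, and the other WT and all 5 Homo libraries have late ones. In males the early numbers were in the Homo group instead, so number range and differences between the sexes are partly confounded. In females 12 genes were DEGs (0.071%). The male raised DEGs had a female median of 0.20 and the repressed ones -0.15. The test of the difference between the sexes passed for none of the 16897 genes (0% by limma) at an adjusted p under 0.05, while 1569 had an unadjusted p under 0.05, among them 118 of the raised and 74 of the repressed male DEGs. That test contains the male contrast that chose these DEGs, so both counts are a description. For Tnf the female difference was 0.04 and the unadjusted p of the interaction was 0.0014. For Apoe it was -0.10 and 0.00118, and for H3f3aos -0.62 and 3.48e-05. Several raised genes were of like size in females, as Ackr3 (1.26 in males, 1.1 in females), Adora1 (1.00 and 0.95), F3 (0.97 and 0.94) and Kcnj12 (0.96 and 1.27). Of these, Kcnj12 passed in females (adjusted p = 0.0089) and the others did not (adjusted p from 0.247 to 0.684).

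Promoters of the changed genes were searched for letters bound by stress and signalling factors, in windows of 250 bases before to 50 bases after the start of 10663 tested genes (RefSeq, GRCm38.p6, matched by symbol). The heat shock element pair, written GAANNTTC or TTCNNGAA on either strand, was held by 11.97% of 117 raised and 16.0% of 81 repressed DEGs other than the chaperones and the 9 genes raised in both sexes, against 14.4% of all. The cAMP response element TGACGTCA was held by 3.42% and 4.94% against 3.55%, and the E-box CACGTG by 9.40% and 8.64% against 11.6%. All of these shares are near the background of the tested genes. Of the 6 repressed chaperone genes with a promoter 5 held the heat shock pair.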

How the data were processed

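FPKM per gene was measured by RNA-seq of microglia. The deposited FPKM were made by the authors with the aligner OSA4 on mm10, the gene model Ensembl.R84 and RSEM, and tested with DESeq2. The versions of RSEM and DESeq2 are not given in the sources used here. Library kits were SMARTer and Nextera XT by the study's methods, whereas the labels name TruSeq. A further 6 columns of values matched no listed sample and were not used. Libraries were scaled to each other by median of ratios, from genes averaging 1 FPKM or more, and log2(FPKM + 0.1) was fitted over all 6 groups of sex and genotype with limma 3.58.1 in R 4.3.3 (trended eBayes, Benjamini-Hochberg). Fold changes are on the log2(FPKM + 0.1) scale, which understates those of low genes. No counts were given, so depth was taken relative to other libraries from the steps of low values. Late fits used late-numbered libraries only. Recovery was tested on simulated data for this comparison over 16897 genes, and 22%, 50% and 76.5% of 200 genes changed 1.5-, 2- and 3-fold were called DEGs. Groups came from the labels. Each library has its own mouse number, and p-values measure the spread between these libraries. The libraries compared and the gene lists were chosen with earlier results of these data known. Named were up to 4 DEGs a list by adjusted p, the 10 raised and 10 repressed DEGs of largest change without overlap, the 10 of each of highest level, DEGs of the late fit, DEG markers, and members that an account of a list needed. Gene coordinates are from GENCODE M21.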

Additional observations from a re-analysis of the deposited data

Results flagged for a closer look

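For each gene named or considered, the highest or lowest of the 5 libraries of a group was compared with the others, and it stood apart when its gap to the nearest library exceeded 0.71 of the group's range. This held in 30 of 274 groups of 5 libraries, where chance gives about 1 in 20 for independent normal values. These values are neither, so the 2 shares cannot be compared. For Prlr, Lcn2, Chil3, Anxa1, Sulf1 and Krt18 all other Homo libraries were at 0, and some of the genes move together. Homo-M-0109 held 11 of the 30. In it the neutrophil and choroid genes Ngp (2.42 FPKM), Lcn2 (0.239), Chil3 (1.07), Anxa1 (0.355), Prlr (0.327) and Sulf1 (0.0817) were higher than in the other Homo libraries, as were Lyz2 (1053), Pigp (111.6) and Zfp943 (42.2), while Il1a (103.7) and Mrc1 (2.405) were lower.

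In Homo-M-0093, Nfil3 (2.08 FPKM), Ccl6 (200.4) and Alb (1.11) were low. In Homo-M-0097, Plin2 (17.3 FPKM) was high and Per1 (0.987) low. In Homo-M-0189, Gm26917 (29.5 FPKM) was high, and Ifi207 (0.218), Xirp1 (0.834) and Ttr (0.0888) were low, and in Homo-M-0190 Krt18 was high at 0.204 FPKM.

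Among the WT libraries, WT-M-0202 was high for Il1a (98.7 FPKM) and Lyz2 (525), toward the Homo values. WT-M-0258 was high for Alb (0.946 FPKM) and low for P2ry12 (3509) and Ttr (0.166). WT-M-0178 was low for Slc9a3r2 (0.878 FPKM), Cpn1 (0.0743) and Plcd1 (8.25), and WT-M-0176 was low for H2-Eb1 (10.7 FPKM). No cause was tested.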

How the results depend on the processing

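The count of 306 DEGs became 480 with array weights, 477 without a fold threshold, 195 without a filter on low values, 42 when only the 10 male libraries were fitted, 35 with the number range as a covariate and 10 in late-numbered mice. Raised DEGs became 345 with array weights, 115 without the filter, 23 with the 10 male libraries and also 23 with the covariate, and 8 in late mice. Repressed DEGs became 215 without a fold threshold, 65 without scaling, 19 with the 10 male libraries, 12 with the covariate and 2 in late mice. Leaving out each library in turn gave 76 to 820 DEGs, 49 to 547 raised and 27 to 273 repressed. The late fit and the fit of 10 libraries hold fewer samples, and for the others the cause was not tested. Of the 10 late DEGs 8, and of the 35 with the covariate 34, were among the 306. Without scaling, 77.0% of DEGs were raised, against 64.4%. Of the 101 named DEGs, 29 passed with each library left out in turn and 5 passed in all 21 alternatives (Bin1, Cacna1s, Gm4951, Tmem154 and Tmem176a), and none changed direction. The test of the difference between the sexes called 0 genes by limma in each alternative run. No paired analysis was possible because each library has a mouse number of its own, so the groups share none. With no counts given, no count test was run.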

Other observations

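Some raised DEGs lie outside the groups described above. Alb, the albumin of liver, stood at 1.11, 1.77, 2.21, 1.76 and 1.65 FPKM in Homo and at 0.456, 0.538, 0.512, 0.548 and 0.946 in WT, without overlap (1.30, adjusted p = 0.00642 by limma; 1.40 in late mice). Cpn1, a carboxypeptidase of plasma that inactivates kinins and anaphylatoxins, stood at 0.865 ± 0.152 FPKM in Homo and 0.230 ± 0.0941 in WT (SD, n = 5; 1.53, adjusted p = 0.0126 by limma). Both calls held with each library left out in turn. Slc4a3, an anion exchanger and the only raised gene among the tested solute carriers, had 0.388 to 1.34 FPKM in Homo and 0.0402 to 0.329 in WT (1.77, adjusted p = 0.0148 by limma), and lost its call without Homo-M-0093 or Homo-M-0109 (adjusted p up to 0.0615). The clone-named genes 2010315B03Rik (37.5 ± 6.25 against 18.6 ± 4.48 FPKM) and Gm9776 (6.08 ± 1.2 against 2.90 ± 0.48) differed without overlap, by 0.94 and 0.96 in males and by 0.04 and -0.06 in females, and kept their calls with each library left out in turn.

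Among nucleolar genes the RNA helicase gene Ddx21 fell (-0.69, adjusted p = 0.0275 by limma) and Rrp1b, a ribosomal RNA processing gene, rose (0.60, adjusted p = 0.0439), and 55 of 57 did not pass. Lgals1, which encodes galectin-1, fell without overlap, from 2.52 ± 0.43 to 1.08 ± 0.48 FPKM (-1.32, adjusted p = 0.0243 by limma), and differed by 0.08 in females. Gm26917, a long non-coding gene, fell in males (-1.35, adjusted p = 0.0489 by limma) and differed by 0.90 in females (unadjusted p of the interaction 0.000352). In Het males it differed from WT by -1.63 in early-numbered and by -0.54 in late-numbered libraries, and the part of number range was not tested. These 4 calls did not hold with each library left out in turn. Lgals1 lost its call without Homo-M-0093, WT-M-0177 or WT-M-0178, and Ddx21, Rrp1b and Gm26917 lost theirs without any of 6, 7 and 8 of the 10, at adjusted p values of up to 0.16.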
